A study of Drosophila melanogaster with 4 samples.

Results

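The genes described here encode proteins of the cytosolic ribosome: RpL15, RpL17, RpL23, RpL27, RpL29, RpL39 and RpLP0 of the large subunit, and RpS15Ab and RpS7 of the small subunit. They were taken by gene symbol, and they are 9 of the 524 genes that were measured on at least 3 of 4 arrays in heads of adult male Drosophila melanogaster. The array carries several independent cDNA fragments (clones) of some genes. The 9 genes had 10 measured clones, since RpS15Ab had 2. The tested flies were unmated Oregon-R wild-type males aged 10 to 11 days that then ate food with 0.33 mg/ml sodium valproate (NaVP), an antiepileptic and mood-stabilising drug and histone deacetylase inhibitor, for 3 days. Their controls were males of the same strain, age and housing (30 flies per vial) moved to fresh normal food for the same time. Each 2-colour cDNA array paired RNA from 1 pool of frozen NaVP heads with RNA from 1 pool of control heads, and the 4 arrays were biological replicates per the series' design text. The dye of the NaVP RNA was Cy5 on the first 2 arrays; on the swap arrays, numbered 3 and 4, it was Cy3.

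A ribosome translates mRNA in the cytosol. Its small subunit reads the message, and its large subunit joins the amino acids and releases the new chain through an exit tunnel. The subunits need their proteins in matched amounts, and in Drosophila the loss of 1 copy of many ribosomal protein genes gives the Minute phenotype of slow development and thin bristles. Ribosomal protein mRNAs are abundant in most tissues and are often regulated together, so their spread relative to each other is of interest beside their common level.

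The values are log ratios, taken as log2, since the base is not stated. The direction of the ratios is not stated either, so each result is given under 2 readings. In the first, the signs of arrays 3 and 4 are turned (the file holds Cy5 over Cy3). In the second they stay as deposited (the file already holds NaVP over normal food). Both readings take arrays 1 and 2 as NaVP over normal food. If those ran the opposite way, every sign below would be exchanged. Values by array are printed with the signs of the file, after centring each array on its median clone (deposited medians of 0.24 to 1.05), which removes any change shared by most clones.

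Between 4.78% (array 2) and 18.9% (array 1) of the 27648 spots had a value, so 3 of the 10 ribosomal clones lacked array 2, as did 463 of all 1030 clones tested. A value means only that a spot passed the authors' filters, because the file holds no intensities. Of 8 photoreceptor markers 5 had a named clone, and trpl, Arr1 and inaD were measured on at least 3 arrays. Of 5 neuronal markers, 1 had a named clone, and it had no value. Both markers of testis or accessory gland with a clone were without a value too, while the gut marker Jon65Aiv was measured, at 0.14 in the turned reading and 0.51 as deposited. The photoreceptor genes averaged 0.34 (trpl), 0.32 (Arr1) and 0.12 (inaD) as deposited, and -0.14, 0.15 and 0.075 in the turned reading. Glial Gs2 and fat body apolpp had -0.060 and -0.18 as deposited and -0.035 and 0.10 turned, and the muscle genes Act88F and Mlc2 had 0.13 and -0.056 as deposited and 0.0022 and 0.076 turned. The apolpp value averages clones at -0.40 and -0.095 as deposited, and at 0.23 and 0.011 turned. SDs of these markers between arrays ran between 0.12 (inaD) and 0.53 (Jon65Aiv) as deposited. Turned, they ran between 0.12 (Mlc2) and 0.80 (Jon65Aiv), with n of 3 or 4. The part of these cell types in the results below was not tested.

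No ribosomal protein clone passed the limma test of a difference between NaVP and control heads under either reading, at an adjusted p (Benjamini-Hochberg, over all 1030 clones) under 0.05. The count was 0 of 10 with the swap arrays turned, where 0.0971% of all clones passed, and 0 of 10 as deposited, where 0.777% passed. The SAM statistic also called 0 of the 10 under each reading. Under each reading 2 of 10 had an unadjusted limma p under 0.05, against 6.89% of all clones in the turned reading and 14.1% as deposited. These were RpL23 and RpL39 in the first case and RpL27 and the second RpS15Ab clone in the second. With dye orientation as a second coefficient, 1 of 10 passed with the swap arrays turned (RpL23, higher), where 3.11% of all clones did. As deposited, 3 of 10 passed (RpL27 and RpL23 higher, the second RpS15Ab clone lower), where 5.73% of all clones did. In that fit the spread borrowed from other clones carried most of the weight (76.4 prior degrees of freedom, against 7.54 and 9.87 in the fits of the mean alone).

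**Figure D1:**
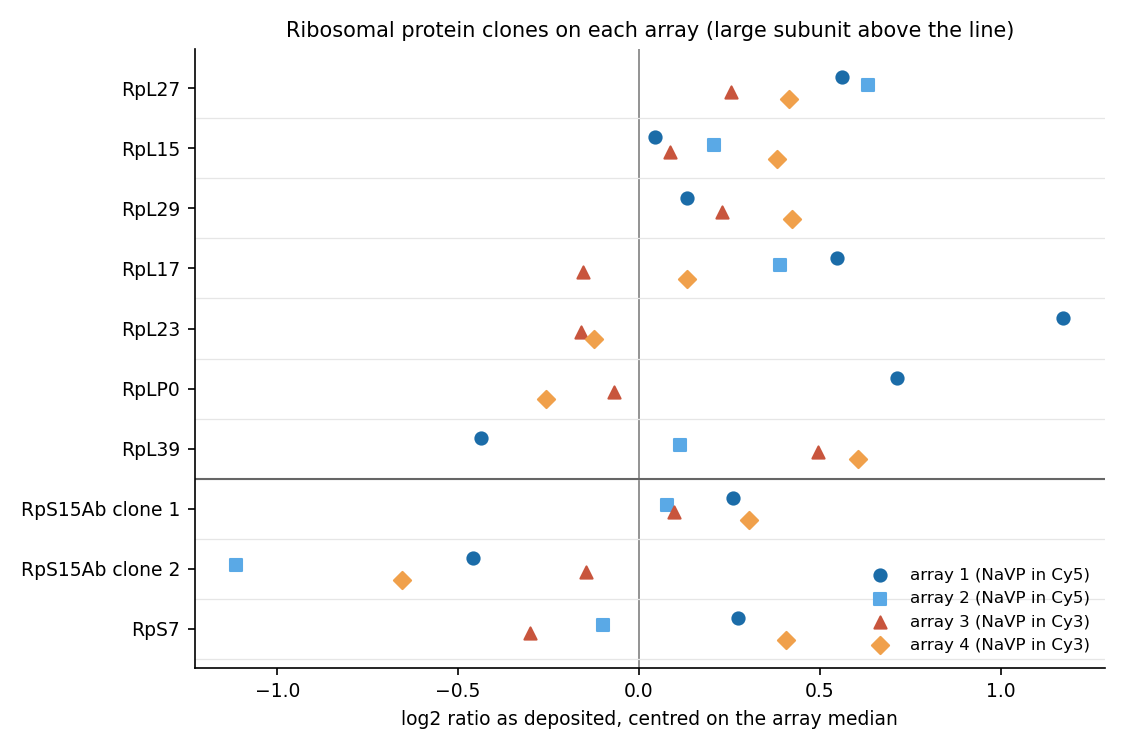
Centred log2 ratio of each ribosomal protein clone (rows) on each array (symbols), with the signs of the file; blue symbols have NaVP in Cy5, red and orange ones in Cy3. RpL27 lay above 0 on all 4 arrays and the second RpS15Ab clone below 0 on all 4, while RpL23 and RpLP0 lay above 0 on array 1 and below 0 on arrays 3 and 4.

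RpL27, a protein of the large subunit, had the highest mean of the family as deposited. Its centred log2 ratios were 0.56, 0.63, 0.26 and 0.41 on arrays 1 to 4. All lay above 0, in both dye orientations, and did so with either centring. As deposited, its mean was 0.47 ± 0.17 (SD, n = 4), a 1.38-fold ratio of NaVP over control heads, at or above 98.5% of all clone means (limma adjusted p = 0.127). The same clone passed with the dye coefficient (limma adjusted p = 0.00798). Turning the swap arrays set the orientations against each other, and its mean was then 0.13 ± 0.54 (SD, n = 4; limma adjusted p = 0.904). Leaving out arrays 1, 2, 3 or 4 in turn left a mean of 0.41 to 0.54 as deposited, and none of these fits called it.

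RpL15 and RpL29, also large-subunit proteins, stood above 0 on every array that measured them, with duplicate spots averaged. On array 1 the duplicate spots lay on both sides of 0 (0.13 and -0.0465 for RpL15, 0.40 and -0.14 for RpL29). The means of both genes as deposited were lower than that of RpL27. RpL15 had 0.044, 0.21, 0.086 and 0.38 on arrays 1 to 4, and RpL29 had 0.13, 0.23 and 0.42 on arrays 1, 3 and 4. As deposited, the mean was 0.18 ± 0.15 for RpL15 (SD, n = 4; limma adjusted p = 0.532). For RpL29 it was 0.26 ± 0.15 (SD, n = 3; limma adjusted p = 0.428). After turning, RpL15 averaged -0.054 ± 0.25 (SD, n = 4; limma adjusted p = 0.965). RpL29 averaged -0.17 ± 0.28 (SD, n = 3; limma adjusted p = 0.836), and between -0.33 without array 1 and -0.049 without array 4. With centring by stretches of 576 neighbouring spots, RpL15 on array 1 was -0.018 and so no longer above 0. The duplicate spots of RpL29 differed by 0.54 on array 1 and 0.48 on array 4, where 86.4% and 92.8% of all spot pairs differed by less.

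RpL23, a large-subunit protein at the face between the subunits, had the widest spread between arrays among the large-subunit genes. Its centred log2 ratios were 1.17 on array 1 and -0.16 and -0.13 on arrays 3 and 4, and array 2 had no value. Array 1 thus stood apart from the swap arrays, and its duplicate spots there differed by only 0.001. In the turned reading all 3 values lay above 0 and averaged 0.49 ± 0.60 (SD, n = 3; limma adjusted p = 0.694), or 1.40-fold. As deposited, 1 of 3 values lay above 0 and the mean was 0.30 ± 0.76 (SD, n = 3; limma adjusted p = 0.594). The dye coefficient gave 0.66 in the turned reading and 0.52 as deposited, and both passed (limma adjusted p = 0.00367 and 0.0212). In that fit the Cy5 orientation rests on array 1 alone. Without array 1 the mean of RpL23 was 0.14 in the turned reading and -0.14 as deposited, from arrays 3 and 4, which share a dye orientation.

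RpLP0, which anchors the stalk where translation factors bind, also lay above 0 on array 1 and below 0 on the swap arrays. It had 0.71 on array 1 and -0.069 and -0.26 on arrays 3 and 4. Its mean was 0.35 ± 0.33 with the swap arrays turned (SD, n = 3; limma adjusted p = 0.728) and 0.13 ± 0.51 as deposited (SD, n = 3; limma adjusted p = 0.794). Without array 1 these became 0.16 and -0.16. Centred by stretches of 576 neighbouring spots in place of the whole array, array 3 was above 0 for RpL23 (0.15) and RpLP0 (0.17). RpL17, which lines the exit tunnel, had 0.55 and 0.39 on arrays 1 and 2 and -0.15 and 0.13 on arrays 3 and 4. The Cy5 arrays lay above both swap arrays. Its means under the turned and the deposited reading were nearly equal, 0.24 ± 0.30 and 0.23 ± 0.31 (SD, n = 4; limma adjusted p = 0.743 and 0.474). Leaving out 1 array moved them between 0.14 (without array 1) and 0.36 (without array 4), and between 0.12 (without array 1) and 0.36 (without array 3).

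RpL39, a small basic protein also found in the exit tunnel, ran the other way. Its centred log2 ratios were -0.44 and 0.11 on arrays 1 and 2, and 0.50 and 0.60 on arrays 3 and 4. The swap arrays were both above the Cy5 arrays. With the swap arrays turned, its mean of -0.36 ± 0.32 (SD, n = 4) was the lowest of the 10 clones, a ratio of 0.781, with 3 of 4 arrays below 0 (limma adjusted p = 0.646). Only 2.04% of all clones had a mean as low or lower. As deposited it was 0.19 ± 0.47 (SD, n = 4; limma adjusted p = 0.626). Single arrays weighed on both: as deposited the mean was 0.40 without array 1, 0.094 without array 3 and 0.058 without array 4, and in the turned reading it was between -0.51 (without array 2) and -0.27 (without array 4). A second RpL39 clone had a value on array 1 alone, -0.0055, against -0.44 for the first there.

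**Figure D2:**
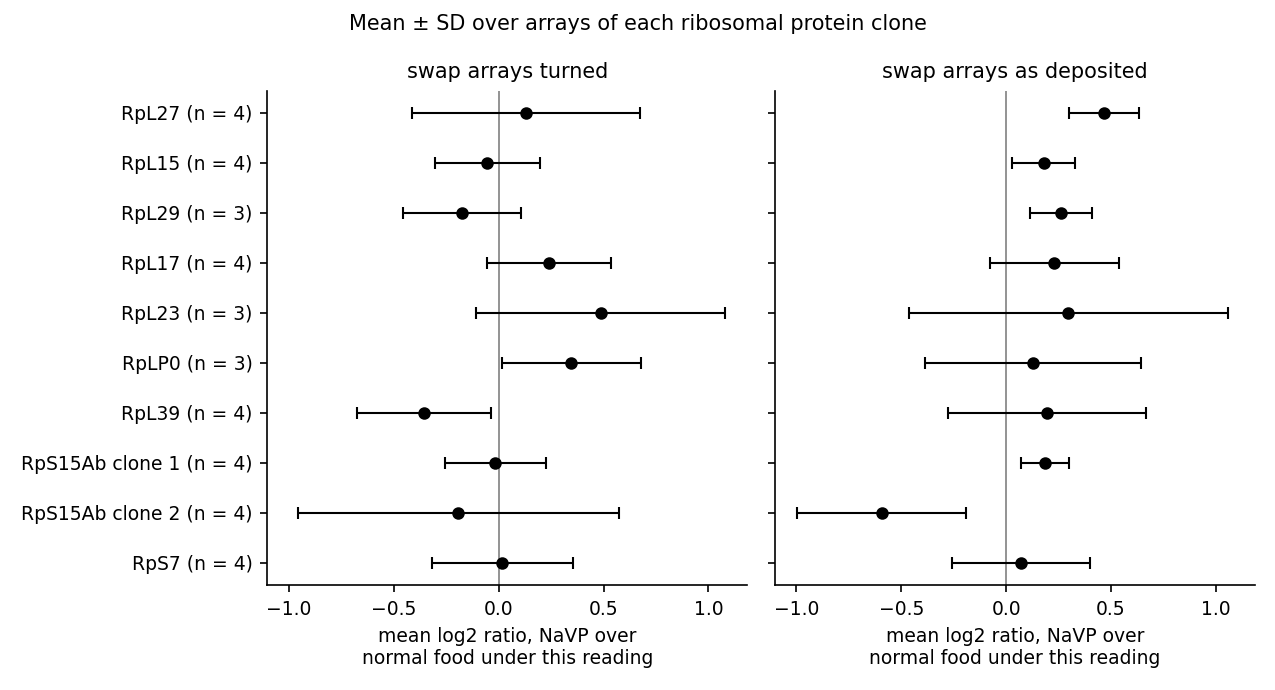
Mean log2 ratio ± SD over arrays of each clone, under the turned reading (left) and the deposited reading (right); n is the number of arrays. As deposited, RpL27 at 0.47 and the second RpS15Ab clone at -0.59 lay farthest from 0; with the swap arrays turned, RpL23 at 0.49 and RpL39 at -0.36 did.

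RpS15Ab, a small-subunit protein gene that has a close copy, RpS15Aa, elsewhere in the genome, was measured by 2 clones that disagreed. The first clone had 0.26, 0.078, 0.098 and 0.30 on arrays 1 to 4, all above 0. The second clone had -0.46, -1.11, -0.15 and -0.66, all below 0, so with the signs of the file the clones did not overlap. With the swap arrays turned, each clone had 2 values above 0 and 2 below. Clones of some other genes also differed as deposited, such as vig (-1.52 and -0.048), and others were close, such as CG2082 (0.23 and 0.22). How often clones of a gene disagree was not counted. As deposited, the first clone averaged 0.18 ± 0.11 (SD, n = 4; limma adjusted p = 0.509). The mean of the second was -0.59 ± 0.40 (SD, n = 4), a ratio of 0.663, with a limma adjusted p = 0.127 that fell to 7.367e-04 with the dye coefficient. Without array 1 the second clone had a mean of -0.64 and passed (limma adjusted p = 0.00507), in a fit where 19 of all clones passed. Without array 2, 3 or 4 it did not pass (limma adjusted p = 0.377, 0.122 and 0.459). In the turned reading the means were -0.016 ± 0.24 and -0.19 ± 0.76 (SD, n = 4 each; limma adjusted p = 0.989 and 0.876).

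The first clone minus the second came to 0.72, 1.19, 0.24 and 0.96 on arrays 1 to 4. As deposited, its mean was 0.78 ± 0.40 (SD, n = 4), with a two-sided exact sign-flip permutation p = 0.125, the smallest that 4 arrays allow. In the turned reading it was 0.18 ± 0.96 (SD, n = 4; exact permutation p = 0.875). The duplicate spots of the second clone also differed from each other, by 0.37, 0.68, 0.22 and 0.74 on arrays 1 to 4, and the first spot was the lower one on every array. On arrays 2 and 4, 95.3% and 96.9% of all spot pairs differed by less. The spots of the first clone differed by 0.019 to 0.14. Which of the RpS15A copies each clone reports was not tested, and a single value for RpS15Ab, -0.20 as deposited with the clones averaged, hides their opposite signs.

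**Figure D3:**
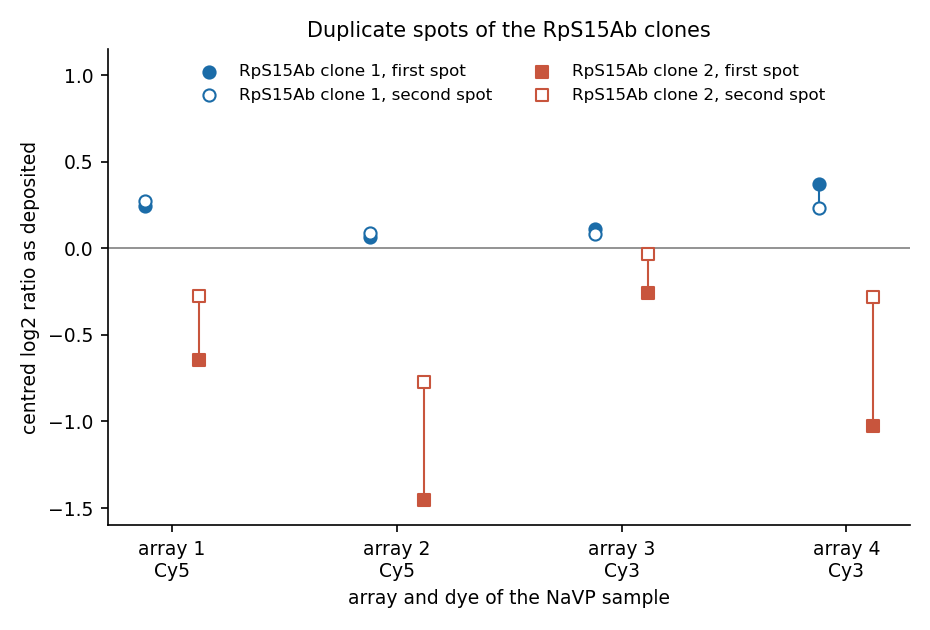
Centred log2 ratio of each duplicate spot of the RpS15Ab clones (filled, first spot; open, second spot; a line joins the spots of a pair) on arrays 1 to 4, with the signs of the file. All 8 values of the first clone lay above 0 and all 8 of the second below it.

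RpS7, the other small-subunit gene, showed no common direction with each array centred as a whole. It had 0.28 and -0.10 on arrays 1 and 2 and -0.30 and 0.41 on arrays 3 and 4. Arrays of the same dye orientation lay on opposite sides of 0. Its mean was 0.017 ± 0.34 in the turned reading and 0.070 ± 0.33 as deposited (SD, n = 4; limma adjusted p = 0.989 and 0.864). Centred by stretches of 576 spots, all 4 values lay above 0 (0.25, 0.045, 0.0070 and 0.21), with a deposited mean of 0.13 (limma adjusted p = 0.655).

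Over the 9 genes, with the RpS15Ab clones averaged, the ribosomal proteins did not share 1 direction with the swap arrays turned. Of the 9, 5 had a mean above 0 and the median was 0.017, against 48.7% above 0 and a median of -0.0047 over all 524 genes. That median was -0.068 without array 1, -0.043 without array 3 and 0.16 without array 4. As deposited, 8 of 9 had a mean above 0, all 7 of the large subunit and 1 of 2 of the small subunit. Their median was then 0.19, against 58.6% above 0 and a median of 0.043 over all genes. Leaving out 1 array put it between 0.12 (without array 1) and 0.23 (without array 3). Means ran between -0.36 (RpL39) and 0.49 (RpL23) with the swap arrays turned, with an SD among genes of 0.27, against 0.20 over all genes. As deposited they ran between -0.20 (RpS15Ab) and 0.47 (RpL27), with an SD of 0.18, against 0.23. These SDs depended on single arrays. The turned SD was 0.19 without array 1 and 0.30 to 0.32 without array 2, 3 or 4. The deposited SD was 0.14 without array 2 and 0.24 to 0.26 without array 1, 3 or 4. With discordant duplicate spots left out it was 0.12, over 8 genes. In bulk heads, a different share of cells rich in ribosomes and a different amount of these mRNAs per cell cannot be told apart.

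**Figure D4:**
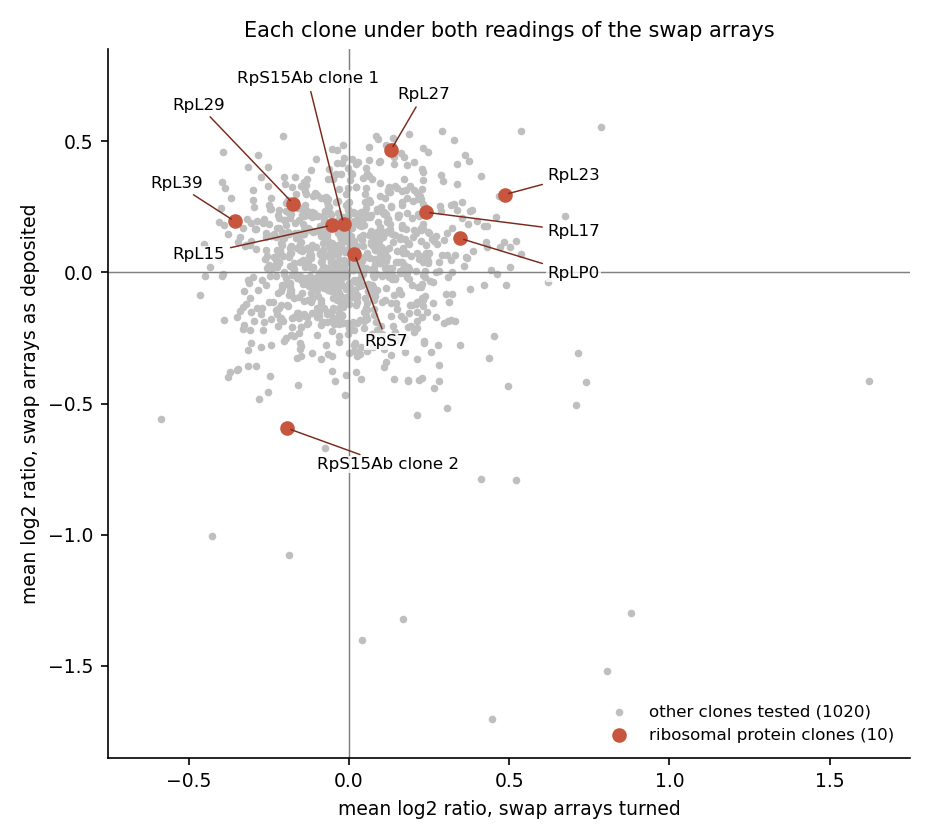
Mean log2 ratio of every tested clone with the swap arrays turned (horizontal axis) and kept as in the file (vertical axis); grey points are the 1020 other clones and red points the 10 ribosomal protein clones. Of the 10, 9 lay above 0 on the vertical axis (60.0% of all clones) and 5 to the right of 0 (47.6% of all clones), and all lay within the range of the other clones.

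For a clone on all 4 arrays, the mean under one reading is the dye effect under the other. Of the 7 ribosomal clones on 4 arrays, 0 kept 1 sign throughout with the swap arrays turned, where 17.4% of all such clones did. As deposited, 4 of 7 did (RpL27, RpL15 and both RpS15Ab clones, 1 of them downwards), where 26.5% of all such clones did. With centring by stretches of 576 spots, an alternative chosen after seeing the data, 3 of 7 did as deposited (RpL27, the first RpS15Ab clone and RpS7; 25.8% of all such clones) and 0 of 7 in the turned reading (18.1% of all such clones). RpL15 lost its single sign on array 1 and the second RpS15Ab clone on array 3 (0.086). For RpL23, RpL29 and RpLP0, which had 3 values, the plain mean mixes the effects under either reading.

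The spread among subunits differed by array. On array 1 the 9 genes ran between -0.44 (RpL39) and 1.17 (RpL23), with a median of 0.28 and an SD among genes of 0.48, against 0.34 over all genes there. On array 2 the 6 measured genes ran between -0.52 (RpS15Ab) and 0.63 (RpL27), with an SD of 0.40, against 0.38. Arrays 3 and 4 were narrower, with SDs of 0.25 and 0.32, against 0.33 and 0.32 over all genes. RpL39 was the highest on both of them and the lowest on array 1, and the lowest was RpS7 on array 3 and RpLP0 on array 4. The median was -0.025 on array 3 and 0.38 on array 4, although these arrays share a dye orientation, and the medians over all genes were 0.023 and 0.030 there.

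**Figure D5:**
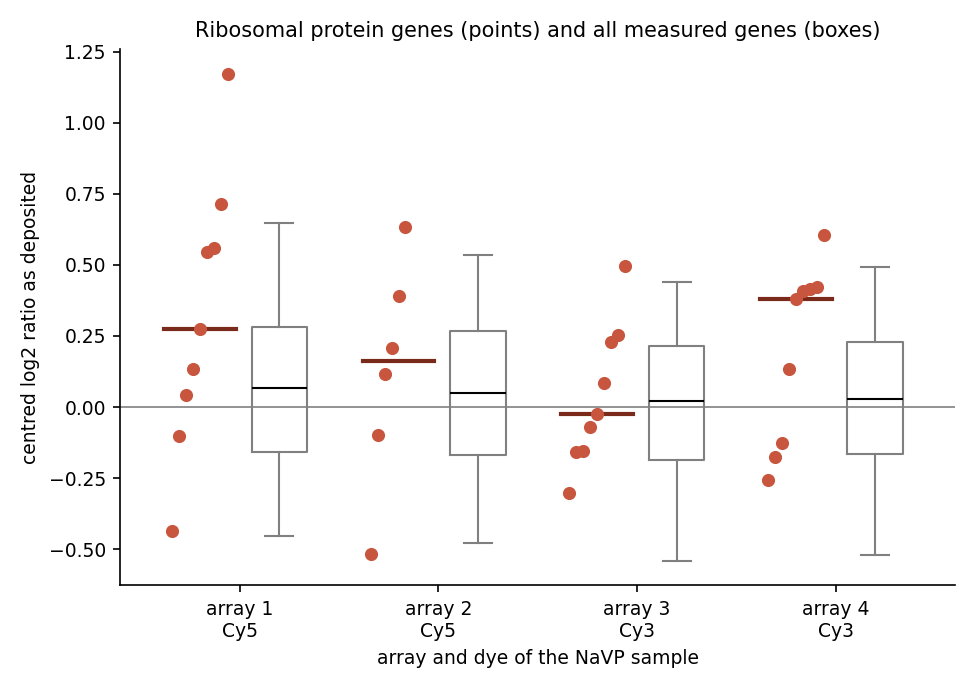
Centred log2 ratio, with the signs of the file, of the ribosomal protein genes on each array (red points, RpS15Ab clones averaged; red bar, their median) and of all measured genes (grey box, quartiles and median; whiskers, 5th to 95th percentile). The ribosomal median was 0.28, 0.16, -0.025 and 0.38 on arrays 1 to 4, and the points spread most widely on array 1.

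The values of the clones were positively correlated between arrays of the same dye orientation. Across orientations the correlation differed between pairs of arrays. Pearson's r over the ribosomal clones was 0.715 between arrays 1 and 2 (7 clones) and 0.582 between arrays 3 and 4 (10 clones), against 0.552 and 0.389 over all tested clones. Across orientations it was -0.402 and -0.102 between array 1 and arrays 3 and 4 (10 clones), and 0.402 and 0.816 between array 2 and arrays 3 and 4 (7 clones). Over all clones the same 4 values were -0.144, 0.212, 0.134 and 0.336. The value of 0.816 leans on the second RpS15Ab clone, which was far below the rest on arrays 2 and 4 (-1.11 and -0.66). Correlations without that clone were not computed, so the difference between pairs of arrays may rest on it. All points of a pair of arrays share those 2 hybridisations, and the 7 clones on array 2 lack RpL23, RpL29 and RpLP0.

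The remaining ribosomal protein genes added little. By symbol, 23 had a named clone on the array, 9 were measured on at least 3 arrays (39.1%, against 7.73% of all genes with a clone), 5 had a value on 1 array, and 9 had none, among them RpL32 with 10 clones. RpL24-like, RpLP0-like and RpL7-like are among the 23 by symbol only, since their yeast relatives are ribosome assembly factors. Without them 20 genes remained, of which 9 (45.0%) were on at least 3 arrays, 3 on 1 array and 8 on none. RpL3 had 0.38 and RpS12 0.18 on array 1, and RpS28b had 0.39 on array 3. RpL24-like had 0.42 on array 1 and RpLP0-like -0.023 on array 3.

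Few genes on the lists used for neighbouring steps of translation were tested. Of 48 mitochondrial ribosomal protein genes with a clone, 3 were tested and none passed, and 0 of 3 did with the dye coefficient. As deposited, mRpS24 had 0.41 ± 0.069 (SD, n = 3; limma adjusted p = 0.230), mRpS34 0.063 ± 0.26 (SD, n = 4) and mRpL18 0.064 ± 0.16 (SD, n = 3). In the turned reading these were 0.18 ± 0.46, 0.22 ± 0.089 and -0.065 ± 0.16, and mRpS34 lay above 0 on all 4 arrays. Of 24 listed translation factor genes with a clone, 5 were tested by 6 clones. Of these 5, 2 had a mean above 0 under each reading, and none passed, with or without the dye coefficient. The list left out the factor gene eEF5, which was measured on all 4 arrays. Its mean was 0.32 as deposited, higher than that of any listed factor, and -0.14 in the turned reading. The poly(A)-binding protein gene pAbp had -0.19 ± 0.062 as deposited and -0.0047 ± 0.23 with the swap arrays turned (SD, n = 4; limma adjusted p = 0.482 and 0.997). The initiation factor genes eIF3g1 and eIF3i had 0.33 ± 0.11 and 0.29 ± 0.48 with the swap arrays turned (SD, n = 3 each; limma adjusted p = 0.710 and 0.749). As deposited they had -0.18 ± 0.36 and 0.065 ± 0.59. The scaffold gene eIF4G1 had 2 clones, at -0.23 ± 0.15 and -0.019 ± 0.28 with the swap arrays turned and at -0.014 ± 0.31 and -0.19 ± 0.14 as deposited (SD, n = 3 each). The elongation factor gene eEF1alpha2 had -0.055 ± 0.33 and 0.22 ± 0.20 (SD, n = 3 each) in the same order. Of 19 listed ribosome biogenesis genes with a clone, 0 were measured on 3 arrays.

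Among the 217 named clones of other genes on all 4 arrays, those nearest to RpL27 in their 4 values were CG14327, Cht6 and CG32638. Their root mean square differences from it were 0.040, 0.11 and 0.17 on the log2 scale, against a median of 0.49. Nearest to the first RpS15Ab clone were Obp56d, Trp1 and Pomp, at 0.049, 0.064 and 0.073, against a median of 0.30. No clone lay as close to the second RpS15Ab clone, for which Zyx, Cals and rogdi came nearest at 0.28, 0.43 and 0.43, against a median of 0.79.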

How the data were processed

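Per the series' design text, slides were scanned at 10 micrometres, quantified in GenePix Pro 6.0 and ratio-normalised in Acuity 4.0. Bad-flagged spots and those with 3% or more saturated pixels, R2 below 0.6 or signal-to-noise below 3 were dropped, and SAM 2.21 was run. The same text names a minimum intensity of 100. Each spot has 1 deposited log ratio, taken here as log2. Adjacent spots of a clone were averaged, each array was centred on its median clone, and 1030 clones on at least 3 of 4 arrays were tested against 0 with limma 3.58.1 in R 4.3.3, two-sided, with Benjamini-Hochberg adjustment (threshold 0.05). This was done for each reading of the swap arrays. The fit was tested on simulated data for the turned reading, with 1 spread for all clones and no dye effect. That test does not cover clones of unequal spread or with a dye effect. Depth is unknown, and the number of arrays limits the precision. Symbols came from an old platform annotation and were updated by gene ID to the RefSeq table of Release 6. Coordinates and sequences of the clones were not used here. The genes, lists and tests were chosen with earlier results of these data known. All clones of the 9 genes are named whatever their values. Of the other lists, every gene tested is named, but the lists of translation factors and ribosome biogenesis genes are not complete. Likeness is the root mean square difference over 4 arrays. The alternatives were no centring, block centring, other array minimums, a dye coefficient, concordant spots, gene averages, SAM and leaving out each array. No motif or protein comparison was run.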

Additional observations from a re-analysis of the deposited data

How the results depend on the processing

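Without centring, the offset of each array adds to every clone. As deposited, 9 of 10 ribosomal clones and 745 of all 1030 clones then passed, so most clones of any kind did. The ribosomal median became 0.89 and the second RpS15Ab clone turned to 0.12. With the swap arrays turned, 0 clones passed, the median became 0.34, and the first RpS15Ab clone (0.30), RpL15 (0.26) and the second RpS15Ab clone (0.13) changed sign. The dye coefficient called 1 ribosomal and 32 of all clones in the turned reading, and 3 and 59 as deposited. Of all clones, block centring called 3 in the turned reading and 21 as deposited, clones on all 4 arrays 0 and 1, clones on at least 2 arrays 0 and 24, and SAM 2 and 2 (main counts 1 and 8). As deposited, 4 passed with discordant duplicate spots left out and 3 with clones of a gene averaged. Leaving out 1 array gave 1 to 12 calls in the turned reading and 3 to 19 as deposited, of which 0 to 1 were ribosomal. Over these fits the turned means ran between -0.11 and 0.080 for the first RpS15Ab clone, -0.48 and 0.11 for the second, -0.077 and 0.16 for RpS7, -0.14 and 0.055 for RpL15, and -0.036 and 0.31 for RpL27. The deposited means ran between -0.16 and 0.32 for RpLP0, -0.042 and 0.19 for RpS7, and -0.14 and 0.52 for RpL23. The cause of these changes was not tested. Leaving out discordant spots dropped RpL29 and the second RpS15Ab clone. Each ratio already pairs a treated with a control pool on 1 array, so the test against 0 uses this pairing and no further pairing was modelled. The signal over background behind a ratio is unknown beyond the filter that dropped spots with signal-to-noise below 3.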

Other observations

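The local level of the arrays differed between stretches of 576 spots that hold ribosomal clones. RpL15 and RpL23 lay in 1 such stretch, whose median on array 3 was -0.31, and RpS7 and the first RpS15Ab clone lay in another, whose median there was also -0.31. After centring by stretch, array 3 gave 0.39 for RpL15, 0.15 for RpL23, 0.0070 for RpS7 and 0.41 for the first RpS15Ab clone, so that RpL23 and RpS7 were no longer below 0 there. RpL15 was then below 0 on array 1 (-0.018). RpLP0 became 0.17 on array 3 and the second RpS15Ab clone 0.086. With this centring RpL27 had a mean of 0.41 as deposited (limma adjusted p = 0.0835) and the second RpS15Ab clone -0.43 (limma adjusted p = 0.0846), and 0 of the 10 clones passed. The stretches are taken from the order of the spots, since no layout was used.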
